A study of Bos taurus with 6 samples.

Results

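GADD45A, GADD45B and GADD45G, CDKN1A and CDKN1B, and MDM2 and PPM1D are growth arrest genes that act in or beside the p53 pathway. Every probe whose platform symbol was one of these 7 genes was taken, which gave 8 probes of 43794 gene probes and 7 genes of 15216 named genes. GADD45A had 2 probes and each of the other genes had 1. The genes were chosen by symbol, but with their log2 ratio of cetrorelix over control already known, so those ratios are described here without a test.

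Cumulus cells, the somatic cells around the oocyte, came from Holstein dairy cows that had received follicle-stimulating hormone (FSH) for 3 days. Recovery followed 68 h of FSH withdrawal, and the labels name 6 cows in all without saying which cows stand behind which replicate. In the cetrorelix condition the cows also received cetrorelix at 12 mg per day for 5 days, starting on day 2 of FSH, and in the control condition they received FSH and its withdrawal alone. Cetrorelix is an antagonist at the pituitary receptor for gonadotropin-releasing hormone, although the labels name it an agonist, and it lowers luteinizing hormone (LH) secretion. LH was not among the measurements used here. Both conditions were hybridised together on each of 6 arrays, as 3 replicates with swapped dyes. The design text calls these replicates biological. Cetrorelix RNA was in Cy5 on the 3 arrays of one slide and in Cy3 on the 3 arrays of another, so an effect of the dye and one of the slide cannot be told apart. The RNA had been amplified before labelling. Since the tissue was measured in bulk, fewer cells of a type and less RNA per cell cannot be told apart.

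The GADD45 proteins are small acidic stress sensors. They bind PCNA, the CDK1 and cyclin B1 complex and the kinase MAP3K4, and they have been linked to DNA repair, DNA demethylation and arrest before mitosis. CDKN1A encodes p21 and CDKN1B encodes p27, inhibitors of cyclin-dependent kinases that hold cells in G1. GADD45A, CDKN1A, MDM2 and PPM1D are known p53 targets. MDM2 marks p53 for degradation and PPM1D is a phosphatase that dampens p53 signalling, so both close a feedback loop. In the follicle, granulosa and cumulus cells leave the cell cycle as they differentiate.

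The labelled cell type was checked against marker genes. Of 10 cumulus and granulosa markers, 9 were above background on all 6 arrays in both conditions, where background is the 95th percentile of the 153 negative control probes of that array and channel. Of 9 leukocyte markers 2 were above background on every array in both conditions, of 9 endothelial markers 0, of 9 oocyte markers 1, of 9 theca and stromal markers 4 and of 6 erythrocyte markers 3. The summed level on the log2 scale ranged over replicates from 13.45 to 14.07 in cetrorelix and from 13.16 to 13.73 in control for theca and stromal markers. For erythrocyte markers it ranged from 10.17 to 10.99 and from 9.8 to 10.47. For leukocyte markers the ranges were 10.36 to 10.65 and 10.33 to 10.64, for endothelial markers 10.16 to 10.67 and 10.15 to 10.59, and for oocyte markers 10.5 to 11.08 and 10.49 to 10.82. Each of these ranges overlapped between conditions but sat higher in cetrorelix at both ends. The cumulus and granulosa range did so too, at 16.79 to 17.34 in cetrorelix and 16.7 to 17.13 in control. Of the markers of other cell types, ACTA2, a smooth muscle actin, and GYPC, an erythrocyte glycophorin, were at unadjusted p below 0.05 in limma. ACTA2 had a log2 ratio of 0.50 ± 0.15 (SD, n = 3; limma adjusted p = 0.22) and GYPC one of 0.46 ± 0.34 (SD, n = 3; limma adjusted p = 0.307), each above 0 in all 3 replicates and on 4 of 6 arrays. The other GYPC probe was at -0.06. Of 7 tested theca and stromal markers 3 lay above 0 and 4 below, with a median of -0.01. Of 5 tested erythrocyte markers 4 lay above 0 and 1 below, with a median of 0.13. Of the 10 cumulus and granulosa markers 5 lay above 0 and 5 below, with a median of -0.05. INHA and AMH among them were at unadjusted p below 0.05 in limma. INHA, the inhibin alpha subunit, was at 0.70 ± 0.03 (limma adjusted p = 0.0822), and AMH, anti-Müllerian hormone, at 1.48 ± 1.21 (limma adjusted p = 0.0583), both above 0 on all 6 arrays. The part of these cell types in the results below was not tested. Between 40.9% and 70.9% of probes were above background in cetrorelix RNA, and between 54.8% and 69.7% in control RNA. It was lowest for the cetrorelix RNA of replicate 2 in Cy5.

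GADD45A gave the highest ratio of the 7 genes. On its brighter probe the log2 ratio of cetrorelix over control was 1.77, 2.41 and 1.91 in replicates 1, 2 and 3 with cetrorelix in Cy5. With cetrorelix in Cy3 it was 1.01, 1.73 and 1.29. The ratio was thus above 0 on all 6 arrays, and in each replicate it was higher with cetrorelix in Cy5. The means of the slides were 2.03 and 1.34. Averaged over each dye swap, the replicates stood at 1.39, 2.07 and 1.60, a mean of 1.69 ± 0.35 (SD, n = 3), or 3.22-fold. Among the 12400 tested genes this mean ranked 5 from the top.

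The raw intensities of this probe showed the same order before any correction. With cetrorelix in Cy5, the cetrorelix and control channels read 563 and 233 in replicate 1, 1378 and 466 in replicate 2, and 1390 and 547 in replicate 3. With cetrorelix in Cy3 they read 686 and 296, 1377 and 367, and 1324 and 426. The cetrorelix channel was the brighter one on every array whichever dye it carried, and both channels were above background on all 6 arrays. The normalised log2 level was 9.1, 10.49 and 10.36 in the cetrorelix replicates and 7.71, 8.42 and 8.76 in the control replicates. The lowest cetrorelix replicate lay above the highest control replicate, and replicate 1 was the lowest in both conditions.

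The other GADD45A probe did not show this difference. Its log2 ratio was -0.52, 0.29 and -0.87 with cetrorelix in Cy5 and 0.13, 0.71 and -0.35 with cetrorelix in Cy3, a mean of -0.10 ± 0.56 (SD, n = 3). It was dim. The cetrorelix channel was above background on 3 arrays and the control channel on 4, and its raw intensities lay between 129 and 289 over both channels of the 6 arrays. The sign differed between replicates, and the replicate levels of the conditions overlapped, at 7.18 ± 0.22 in cetrorelix and 7.28 ± 0.45 in control. The mean of both probes gave a log2 ratio of 0.79 in place of 1.69. The probe annotation holds symbols without transcript positions, so which transcripts each probe reads is not known here.

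**Figure D1:**
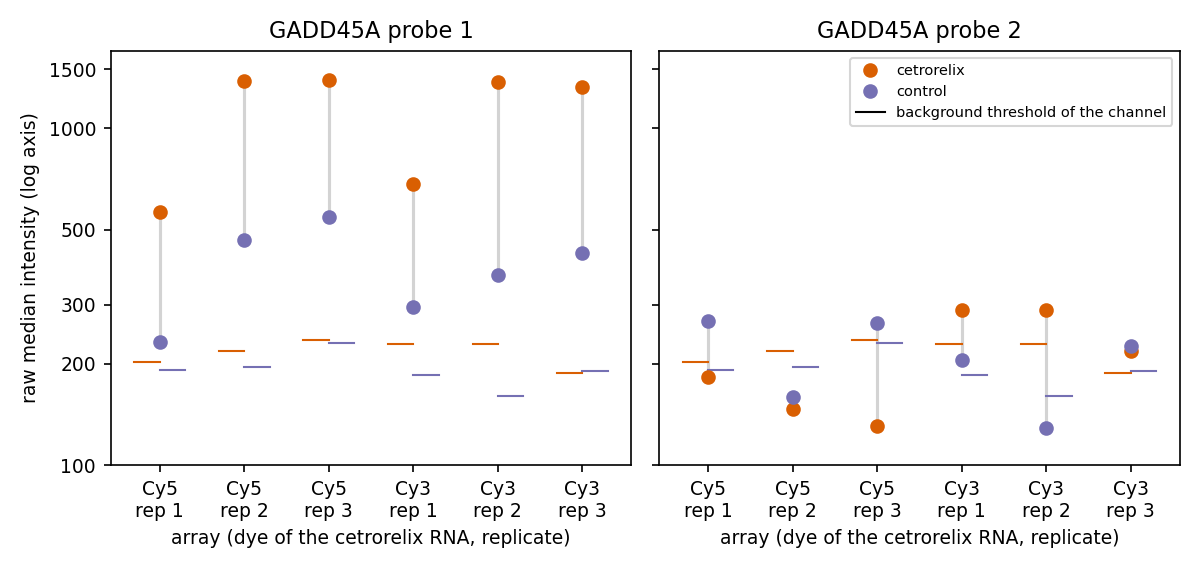
Raw median intensity (log axis) of the GADD45A probes in the cetrorelix channel (orange) and the control channel (purple) of each array, named by the dye of the cetrorelix RNA and the replicate. Short lines mark the background threshold of each channel. On probe 1 the cetrorelix channel is brighter on all 6 arrays and every point lies above its threshold, while on probe 2 the points lie between 129 and 289, several of them below their threshold.

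GADD45G was the other member with a ratio above 0 on all 6 arrays. Its log2 ratio was 0.84, 1.32 and 0.82 with cetrorelix in Cy5 and 1.05, 1.18 and 0.80 with cetrorelix in Cy3. The slide means of 0.99 and 1.01 were nearly equal. The replicates stood at 0.95, 1.25 and 0.81, a mean of 1.00 ± 0.23 (SD, n = 3), or 2.0-fold, which ranked 145 among the tested genes. Raw intensities were high, 5930 to 8398 for cetrorelix RNA and 3516 to 5173 for control RNA. The highest control reading was thus below the lowest cetrorelix reading. The normalised level was 12.86, 12.93 and 12.87 in cetrorelix, a spread of 0.03 (SD), and 11.92, 11.67 and 12.06 in control.

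GADD45B moved less. Its log2 ratio was 0.25, 0.57 and -0.02 with cetrorelix in Cy5 and 0.41, 0.54 and 0.23 with cetrorelix in Cy3, so it was above 0 on 5 arrays. The replicate averages were 0.33, 0.55 and 0.10, all above 0, with a mean of 0.33 ± 0.23 (SD, n = 3), or 1.26-fold, which ranked 1498. Levels fell between 11.85 and 12.76 in cetrorelix and between 11.74 and 12.43 in control. These ranges overlapped, while within each replicate the cetrorelix level was the higher one.

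**Figure D2:**
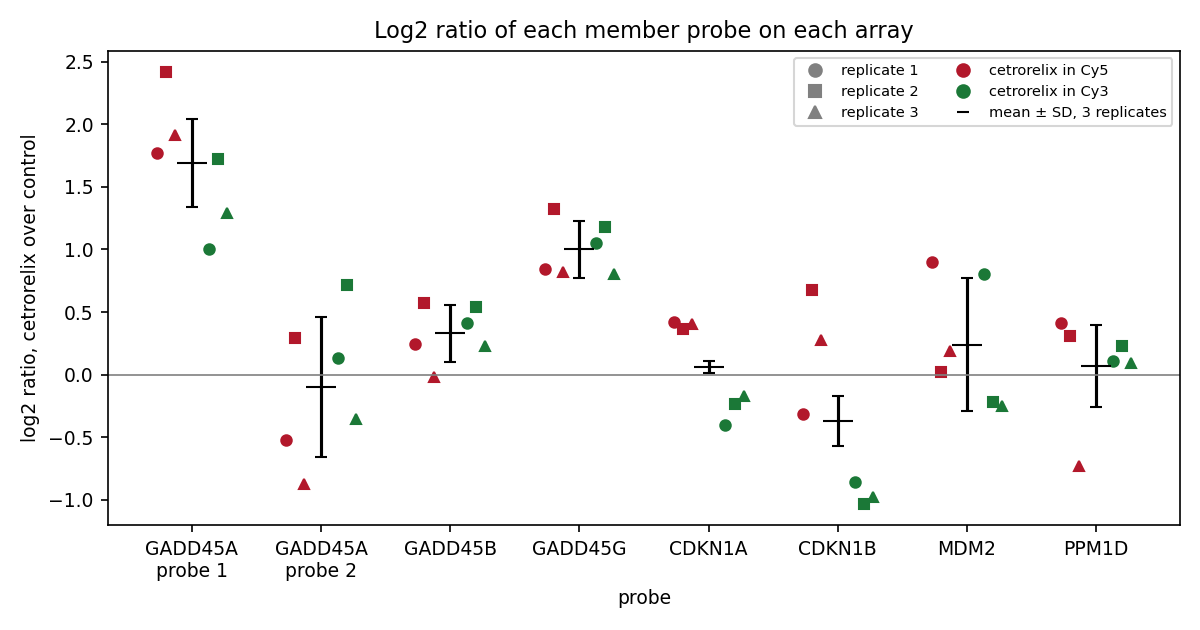
Log2 ratio of cetrorelix over control for each probe on each array, with colour for the dye of the cetrorelix RNA, symbol for the replicate, and black bars for the mean ± SD of the 3 replicate averages. GADD45A probe 1 and GADD45G lie above 0 on all 6 arrays, whereas the CDKN1A points split by dye around 0.

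The kinase inhibitors differed from one slide to the other. For CDKN1A the log2 ratio was 0.42, 0.36 and 0.41 with cetrorelix in Cy5 and -0.40, -0.23 and -0.17 with cetrorelix in Cy3. Each slide therefore gave one sign on all of its arrays, and the slides gave opposite signs, with means of 0.40 and -0.27. The dye-swap averages came to 0.06 ± 0.05 (SD, n = 3), and the levels overlapped at 8.29 ± 0.09 in cetrorelix and 8.22 ± 0.11 in control. Among all tested genes 8.87% had opposite signs on the slides in the same full way.

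CDKN1B, the gene of p27, had a log2 ratio of -0.32, 0.67 and 0.27 with cetrorelix in Cy5 and of -0.86, -1.03 and -0.98 with cetrorelix in Cy3. On the Cy3 slide all 3 arrays were below 0, and on the Cy5 slide only replicate 1 was. The slide means were -0.96 and 0.21, further apart than the mean ratio was from 0. The replicate averages were -0.59, -0.18 and -0.35, a mean of -0.37 ± 0.20 (SD, n = 3), so that control was 1.29-fold above cetrorelix. Averaged over the dyes, levels were 7.85, 8.07 and 8.06 in cetrorelix and 8.44, 8.25 and 8.41 in control. These did not overlap, but all 3 arrays of a slide shared the direction on the Cy3 slide alone.

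MDM2, the ubiquitin ligase of p53, was higher in replicate 1 only. Its log2 ratio was 0.90, 0.03 and 0.19 with cetrorelix in Cy5 and 0.80, -0.22 and -0.25 with cetrorelix in Cy3. Both arrays of replicate 1 were near each other, and the other replicates lay around 0. The mean of 0.24 ± 0.53 (SD, n = 3) rested on replicate 1, without which it was -0.06. Levels were 8.93, 7.85 and 7.98 in cetrorelix and 8.08, 7.94 and 8.01 in control.

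PPM1D was close to background. Its log2 ratio was 0.41, 0.31 and -0.73 with cetrorelix in Cy5 and 0.11, 0.23 and 0.10 with cetrorelix in Cy3. The cetrorelix channel was above background on 2 arrays and the control channel on 0. The measured mean levels of 6.94 and 6.87 were therefore not well above background, no fold is given, and PPM1D was left out of the fits over all genes.

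**Figure D3:**
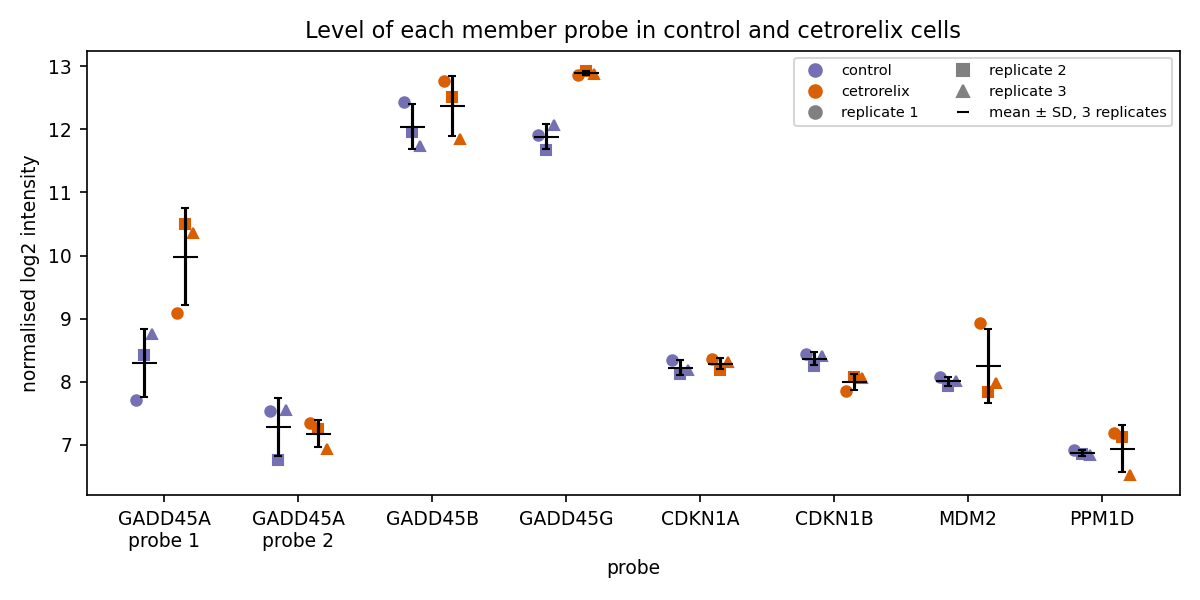
Normalised log2 intensity of each probe in control (purple) and cetrorelix (orange), each point the dye-swap average of a replicate and each bar the mean ± SD of 3 replicates. The conditions are to be compared within a probe, since intensities of different probes are not on a common scale. GADD45A probe 1 and GADD45G are separated upward and CDKN1B downward, and the other probes overlap.

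Replicate levels of the conditions did not overlap, with cetrorelix higher, for GADD45A and GADD45G, a pattern that 7.19% of all tested genes showed. They did not overlap, with cetrorelix lower, for CDKN1B, as for 8.6% of all tested genes. A ratio above 0 on all 6 arrays was found for the same GADD45A and GADD45G probes and for 4.16% of tested genes. Nothing is read from these counts, since the same ratios chose the genes. Over all 32125 tested probes, limma called 330 at a Benjamini-Hochberg adjusted p below 0.05 (1.03%), with 247 of them above 0 (0.769%) and 83 below (0.258%). That count depended on single replicates: it was 0 without replicate 1 and 2344 without replicate 3, and at unadjusted p below 0.05 limma still had 1395 genes without replicate 1. With the replicate as a block and the dye as a term it was 1245.

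Genes whose ratios lay nearest those of GADD45A were found by the root mean square difference from its brighter probe over the 6 arrays. The ratios were not centred, so genes with ratios about as high are nearest by construction. POLR2E, a subunit shared by the RNA polymerases, was nearest, at 0.59, read from the brightest tested one of its 3 probes. CLIC3, a chloride channel family protein, followed at 0.62. CNN1, the smooth muscle calponin, IMPDH1, an enzyme of guanine nucleotide synthesis, and PTGDS, a prostaglandin D2 synthase, each stood at 0.63. The median over all tested genes was 1.82. Their mean log2 ratios were 1.17 for POLR2E, 1.56 for CLIC3, 1.47 for CNN1, 1.25 for IMPDH1 and 1.62 for PTGDS. All of these points share the same arrays and extracts, so the likeness is a description.

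The pathway around these genes was read from 6 lists holding 99 genes, of which 84 were tested. Of these 84, 37 had a log2 ratio above 0 and 47 below, with a median of -0.03, beside -0.01 for all 12400 tested genes. At limma's unadjusted p below 0.05, 11 were higher and 11 lower, which is 26.2% of the 84 beside 17.4% of all tested genes (8.2% higher and 9.15% lower). Both shares moved with the setting: 14 of the 84 passed beside 14.9% of all tested genes with probes averaged. Without replicate 3, 31 of the 84 passed beside 23.6%. After adjustment over all tested probes, 1 of the 84 passed, and 1.56% of all tested genes did. The number of listed genes that passed depended on the setting. It was 9 with the replicate block and 13 without replicate 3. In those fits 1245 and 2344 of all 32125 tested probes passed, beside 330 in the main setting. The number of listed genes was 0 with median centring, without background correction, with the authors' deposited values or without replicate 1. Averaging the probes of a gene, keeping marked spots in the background fit or reading replicate 2 from 1 array also gave 0. Passing with the replicate block, as given below for single genes, is thus 1 setting among these.

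Among 18 tested regulators of p53 and damage kinases, 8 lay above 0 and 10 below, with a median of -0.07. At unadjusted p, 2 passed as higher and 2 as lower. USP7, a deubiquitinase that acts on MDM2 and p53, rose by a log2 ratio of 1.34 ± 0.68 (SD, n = 3), at a limma adjusted p of 0.0265, and every one of the 6 arrays had it above 0. Its 4 probes ranged from -0.33 to 1.34, and the call was absent in 7 of 16 alternative settings, among them the fit without replicate 1. TRIM28, a corepressor that works with MDM2, had a log2 ratio of 0.99 ± 0.76 (limma adjusted p = 0.0828). In the fit with the replicate block TRIM28 passed, at a limma adjusted p of 0.00511. The 2 lower genes were CHEK1, at -0.66 ± 0.33 (limma adjusted p = 0.125, and 0.0457 with the replicate block), and COP1, at -0.63 ± 0.33 (limma adjusted p = 0.137).

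Of 21 tested p53 target genes, 10 lay above 0 and 11 below, with a median of -0.03. At unadjusted p, 3 passed as higher and 1 as lower, and 0 passed after adjustment in limma. XPC, a DNA damage recognition protein, had a log2 ratio of 0.67 ± 0.11 (limma adjusted p = 0.0928) on its brighter probe and -0.12 on the dimmer. CCNG1, cyclin G1, had -0.79 ± 0.51 (limma adjusted p = 0.0973) and -0.13 on the dimmer probe. Both passed with the replicate block, at limma adjusted p of 0.0336 for XPC and 0.0165 for CCNG1. Values of the p53 targets thus lay on both sides of 0.

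All 4 tested members among the other kinase inhibitors lay below 0 (3 of 4 with median centring in place of loess), with a median of -0.34, and 2 of them were lower at unadjusted p. Of all 12400 tested genes, 6507 lay below 0. CDKN2B at -0.02 and CDKN2D at -0.03 were close to 0, so the median fell between these genes and the 2 lower ones. CDKN2C, the p18 inhibitor of CDK4 and CDK6, had a log2 ratio of -0.80 ± 0.22 (limma adjusted p = 0.0583), and with the replicate block it passed at 0.0103. CDKN3, a phosphatase of CDK2, had -0.65 ± 0.60 (limma adjusted p = 0.203). Of 16 tested G1 and S phase genes, 5 lay above 0 and 11 below, with a median of -0.05, and 2 were lower at unadjusted p. These were RBL2, the p130 pocket protein, at -0.52 ± 0.38 (limma adjusted p = 0.25), and TFDP1, the partner of the E2F factors, at -0.64 ± 0.81 (limma adjusted p = 0.29).

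Genes that turn over p27 or act through FOXO factors went both ways. Of 12 tested, 7 lay above 0 and 5 below, with a median of 0.05, and 2 passed in each direction at unadjusted p. CUL1, the scaffold of the ligase that degrades p27, had a log2 ratio of 0.74 ± 0.37 (limma adjusted p = 0.0945, and 0.0234 with the replicate block). Its control channel was above background on 3 arrays. COPS5, which exports p27 from the nucleus, had -0.52 ± 0.18 (limma adjusted p = 0.2) and was lower on 6 of 6 arrays.

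Of 13 tested GADD45 partners, 7 lay above 0 and 6 below, with a median of 0.11. At unadjusted p 4 were higher and 2 lower, and 0 passed after adjustment in limma. MAPK14, the p38 kinase downstream of MAP3K4, had a log2 ratio of 0.70 ± 0.16 (limma adjusted p = 0.0842), with other probes as low as -0.32. TET2, an enzyme that oxidises methylated cytosine, had 1.17 ± 1.05 (limma adjusted p = 0.0895), with replicates at 2.03, 0.00 and 1.48 and other probes as low as -0.20. Both passed with the replicate block, at limma adjusted p of 0.0257 for MAPK14 and 0.00291 for TET2.

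**Figure D4:**
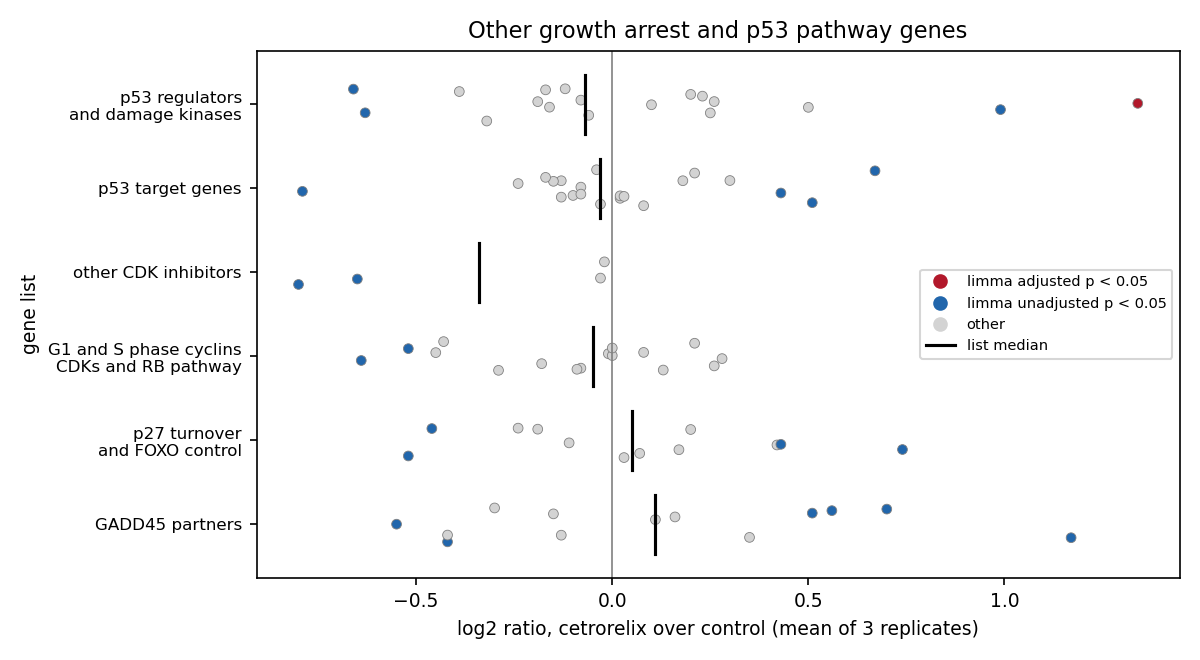
Mean log2 ratio of cetrorelix over control for each tested gene of the 6 pathway lists, 1 point a gene, read from its brightest probe. Black lines are list medians, blue points passed at unadjusted p below 0.05 in limma and the red point, USP7, passed after adjustment. The 4 points of the other kinase inhibitors lie below 0 (3 of them with median centring), CDKN2B and CDKN2D only just, at -0.02 and -0.03. The other lists lie on both sides.

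The values of the 6 tested members were set beside those under other processing settings. GADD45A stayed between 1.34 and 2.03 in every setting run, except 0.79 for the mean of both probes. GADD45G stayed between 0.84 and 1.1 and GADD45B between 0.17 and 0.44. The authors' deposited table gave means of 1.61 for GADD45A, 0.93 for GADD45G, 0.24 for GADD45B, 0.08 for CDKN1A, -0.31 for CDKN1B and 0.22 for MDM2. CDKN1A ran from -0.27 to 0.40 and CDKN1B from -0.96 to 0.21, so for both the sign depended on the slide read.

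**Figure D5:**
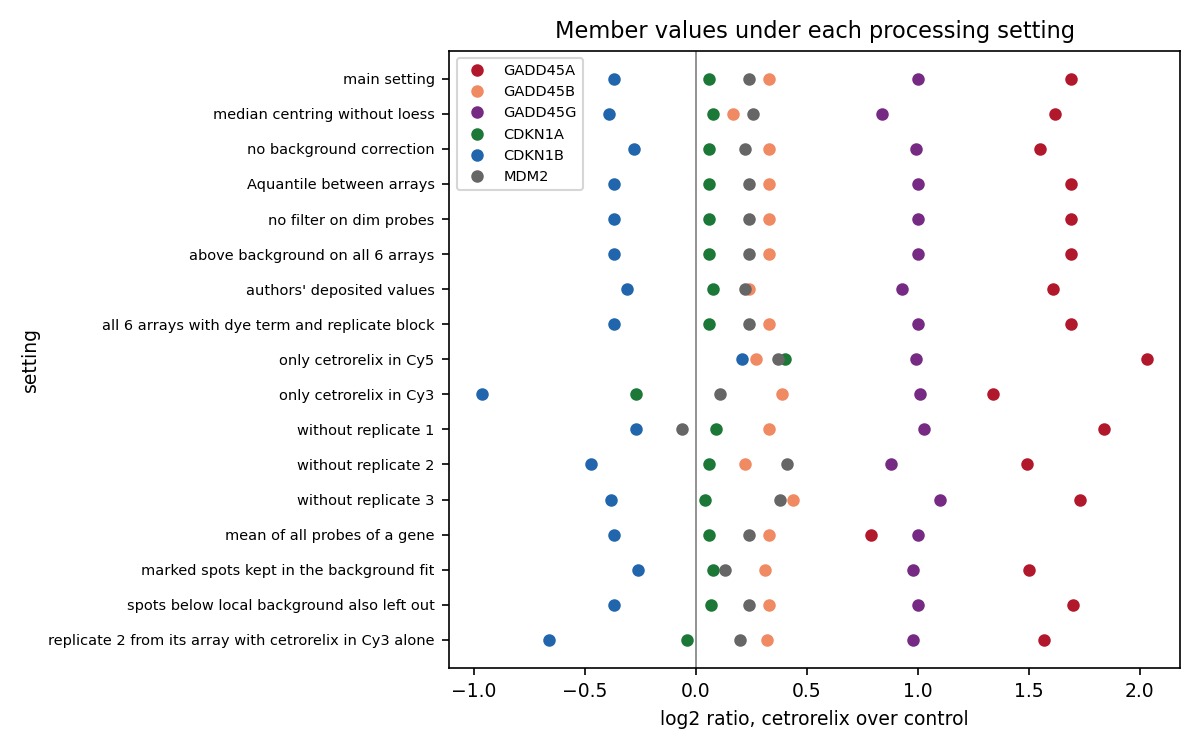
Mean log2 ratio of cetrorelix over control of 6 members under the main setting and each of 16 alternatives. GADD45A and GADD45G stay above 0 throughout, and CDKN1A and CDKN1B cross 0 between the rows for the single slides.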

How the data were processed

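Each array's scanner table holds, per the file headers, the median intensity and median local background intensity of every spot for Cy5 and Cy3. The authors also deposited log2 ratios of the same arrays in a normalised table and in a table of series values. Set against the scanner values, the first ran as Cy5 over Cy3 and the second as cetrorelix over control (r from 0.987 to 0.994 across probes for each). The second was used, and its column medians were 0.01, -0.03, 0.01, -0.01, -0.01 and -0.02, and how they were centred is unknown here. The submitters' processing notes name limma without version or settings.

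From 45212 spots, those marked to be ignored (36 to 94 per array) were set to missing before background fitting. An earlier processing of these data had kept them in that fit, and the change was made with the data seen. Intensities were corrected with normexp (offset 50) and normalised by loess within arrays, control spots at weight 0. Ratios were turned to cetrorelix over control and dye-swap arrays averaged. A probe was tested if it exceeded background on 3 or more arrays in 1 condition and had a value on all 6 (32125 probes) in limma 3.58.1 (R 4.3.3), two-sided, lmFit and eBayes, with Benjamini-Hochberg adjustment over all of them. For counts of genes, each of 12400 genes was read from its brightest tested probe, with the p-value adjusted over all probes. The replicate block fit used all 6 arrays with a dye term. The limma fit was tested on simulated replicate ratios with known changes and no dye or slide effect, so the steps before it were not covered. The replicates are called biological, but nothing says that they came from separate cows, so p-values measure only the spread between these samples. Arrays have no read depth, and their number limits precision.

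Of 21790 probes with a symbol, 20025 were current in the RefSeq genes of ARS-UCD2.0, 1524 were updated by synonym and 241 kept the listed name. No coordinates or sequences were used.

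Members, lists and tests were chosen with earlier results of these data known. Named genes were all 7 members, the 2 genes of lowest unadjusted p in each pathway list, and the 5 genes nearest to GADD45A. The cell type markers with values, CHEK1, COP1, CDKN2B and CDKN2D were named after their values were seen. Replicate numbers pair arrays: the design text states a dye swap, and deviations of same-numbered arrays from their slide means correlated at 0.222, 0.377 and 0.359. Those deviations correlated from -0.301 to -0.0637 between arrays of different number. The ratios of the 2 arrays of a replicate correlated across probes at 0.0625, 0.25 and -0.119. Between arrays of different number the ratios correlated from -0.256 to 0.126, so by this measure same-numbered arrays were not always closer. Alternatives covered background correction, normalisation, probe filters, the authors' values, a replicate block, single slides, single replicates and averaging of probes.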

Additional observations from a re-analysis of the deposited data

Results flagged for a closer look

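CDKN1A differed between the slides. Its log2 ratio was above 0 on all 3 arrays with cetrorelix in Cy5 and below 0 on all 3 arrays with cetrorelix in Cy3, and the slide means differed by 0.67. The difference was not tested, and slide and dye cannot be told apart.

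PPM1D had 1 array far from the others, replicate 3 with cetrorelix in Cy5, at a log2 ratio of -0.73. The gap to the next array was 0.72 of the whole range, above Dixon's critical value for 6 values. Chance passes that value in about 1 in 20 groups of independent values. These 6 are dye-swap pairs of 3 replicates, so that rate does not carry over. The log2 ratio of this array was -0.16 with marked spots kept, -0.58 without background correction and -0.91 with median centring. Both channels of this array were below background for the probe, at 122 against a threshold of 236 for cetrorelix and 229 against 230 for control.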

How the results depend on the processing

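The number of probes called by limma moved from 330 to 16 with median centring in place of loess, 4 without background correction, 9 with the authors' deposited values, 1107 from the Cy5 slide alone and 2942 from the Cy3 slide alone, and ranged from 0 to 2344 when 1 replicate was left out. The fit with the replicate block and a dye term gave 1245. Keeping marked spots in the background fit, as an earlier processing of these data had done, gave 4. Setting marked spots to missing, as in the main setting, was thus a change made with the data seen. Also chosen after seeing the data, reading replicate 2 from its array with cetrorelix in Cy3 alone gave 0. In that setting 1793 genes were at unadjusted p below 0.05 in limma. The lowest marked spot stood at -65127 after subtraction of its local background, and with marked spots kept the fitted background mean of 1 channel was -354 in place of 77.9. GADD45A moved only when its probes were averaged, to 0.79, and ranged from 1.49 to 1.84 with 1 replicate left out. CDKN1B was 0.21 from the Cy5 slide alone, -0.96 from the Cy3 slide alone and -0.66 with replicate 2 from 1 array. CDKN1A was 0.40 and -0.27 from the single slides and -0.04 with replicate 2 from 1 array. Of 80 other values of members under alternatives, 74 moved by less than the spread between replicates and 76 kept their sign. MDM2 was the fourth value to change sign, to -0.06 without replicate 1. Pathway genes at unadjusted p numbered 22 of 84, beside 17.4% of all tested genes. Without replicate 1, 2 or 3 they were 12, 13 and 31, beside 11.2%, 10.1% and 23.6% of all tested genes. With all probes averaged they were 14 of 84, beside 14.9%. With probes above background on all 6 arrays they were 17 of 67, beside 21.9%. With the replicate block they were 26, beside 19.2% of all tested genes, and 9 passed after adjustment in place of 1. Among all genes at unadjusted p, 47.3% were higher, and 36.1% with median centring. Pathway genes stood near those shares, with 11 of 22 and 7 of 20 higher. The cause of these shifts was not tested. Dim probes, PPM1D and the second GADD45A probe among them, limit what the arrays can show.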
